A study of Danio rerio with 6 samples.

Results

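The genes described here are those that specify red blood cells in the zebrafish embryo, together with the embryonic globins that these cells make. They were chosen by name, as 10 symbols, and 9 of them have a row of their own among the 13466 genes of the count table: the regulators *gata1a*, *tal1* and *lmo2*, the membrane protein genes *slc4a1a* and *epb41b*, and the globins *hbae3*, *hbbe1.1*, *hbbe2* and *hbbe3*. The symbol *klfd* has no row. RefSeq (assembly GRCz12tu) lists *klfd* as a synonym of *klf1*, and the table does have a *klf1* row, which is described with the regulators below but not counted among the 9. The libraries were made from whole embryos at 18hpf, freed of chorion and yolk, by RNA-seq. There were 3 libraries from homozygous *hoxb1b* mutants (hoxb1b-/-, the um197 allele in the study's methods) and 3 from wildtype controls at the same stage. Embryos were pooled for RNA. The number of embryos per pool, whether each library of a genotype had its own pool, and whether the wildtype embryos were siblings of the mutants are not given in the sources used here.

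Primitive red blood cells of the zebrafish arise from lateral mesoderm, where blood and vessel precursors lie side by side. Tal1 and Lmo2 are needed for both lineages, Gata1 then commits cells to the erythroid fate, and globins, membrane skeleton proteins and heme enzymes accumulate as the cells mature. In adult vertebrates the same factors, with a Krüppel-like factor known in mouse as Klf1, act together at globin genes.

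Total estimated counts lay between 19139322 and 29146812 in the mutant libraries and between 19934858 and 23725696 in the wildtype libraries. Expression is given as CPM, counts per 1000000 of the TMM-normalized library size, and was compared with edgeR's quasi-likelihood test over the 12471 genes that passed its filter for low counts. All 9 genes passed this filter. Fold changes are mutant over wildtype, with standard errors (SE) and Benjamini-Hochberg adjusted p. Beyond counting noise, libraries of a genotype had an estimated coefficient of variation of 1.85%, so that even small differences passed the test: 66.2% of all genes tested had an adjusted p under 0.05. The p-values measure only the spread between these libraries, which may be technical. *hoxb1b* itself stood at 84.4 ± 0.787 CPM in mutant and 69.1 ± 2.37 CPM in wildtype libraries (SD, n = 3 each), so its transcript was not lost and does not check the labels.

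In *hoxb1b* mutants, the globins and membrane protein genes that maturing red blood cells use were several-fold lower, while the regulators *gata1a*, *tal1* and *lmo2* were not. All 4 globins and both membrane protein genes were lower by 2.75-fold to 4.78-fold. By contrast, *gata1a* was not called, and *tal1* and *lmo2* were higher by 1.15-fold and 1.5-fold. The regulator *klf1*, which is not counted among the 9, was 5.05-fold lower. Of the 9 genes, 6 were lower with an adjusted p under 0.05, where 33.6% of all genes tested were, and 2 were higher, where 32.6% were. The same 6 genes also passed the study's criterion of a change above 2-fold. Both limits together, the adjusted p and the fold change, were passed downward by 6.66% of all genes tested. None of the 9 passed both upward, where 1.7% of all genes did. The mutant libraries lay below all wildtype libraries for the same 6 genes, where 34.5% of all genes tested did, and above them for *tal1* and *lmo2*, where 33.7% did. The 9 genes and the lists below were chosen with earlier results of these data known. Counts set beside the shares of all genes are therefore descriptive and not independent support. Because the libraries are from whole embryos, fewer red blood cells and less RNA per cell cannot be told apart. A split of this kind was not confined to red blood cell genes. In the muscle list, *mylpfa* (log2 fold change -1.57) and *tnnt3b* (-1.92) were lower, while *myod1* (0.42) was higher. In the primitive myeloid list, *lyz* (-2.38) was lower, while *spi1b* (0.51) and *cebpa* (0.41) were higher. Whether the embryos of both genotypes had developed equally far was not tested.

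**Figure D1:**
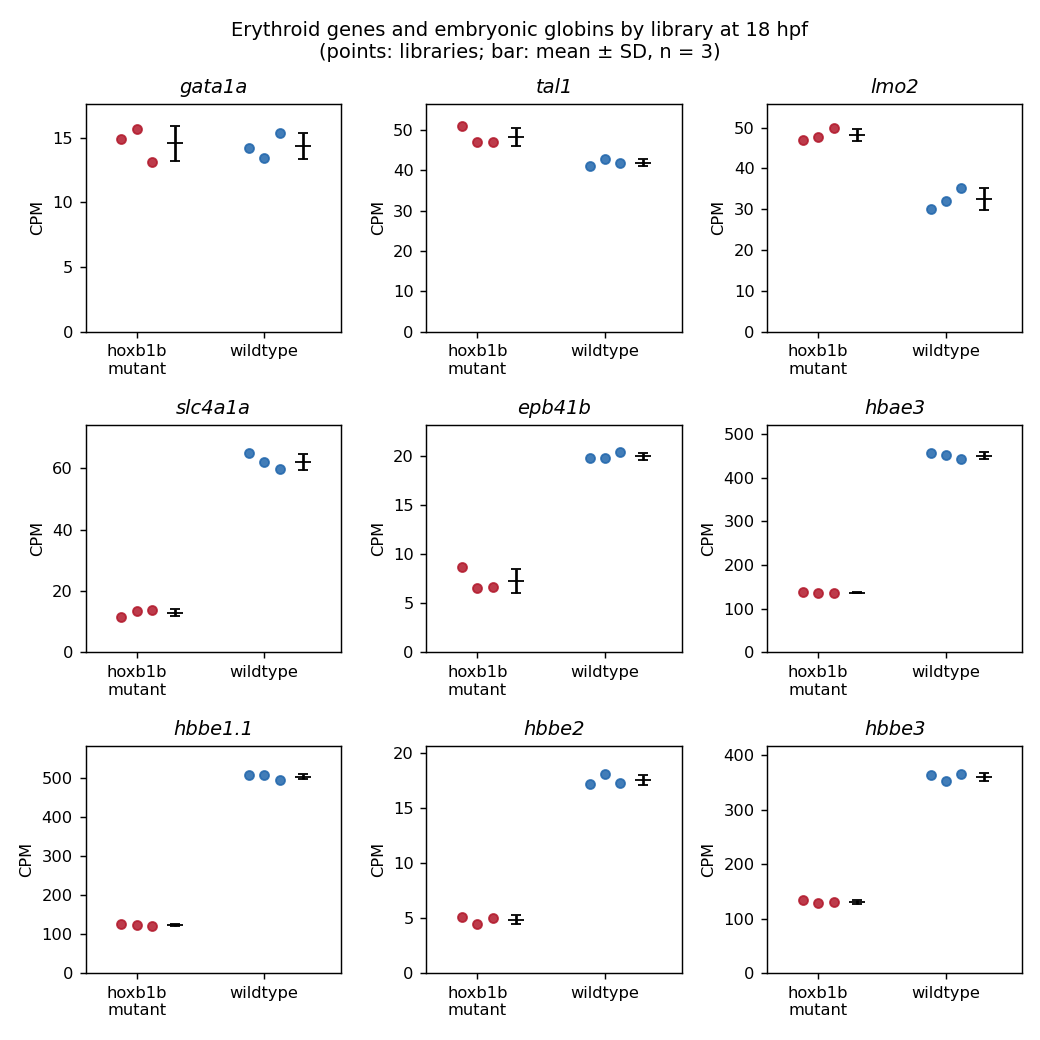
CPM of the 9 genes in each of the 3 *hoxb1b* mutant libraries and the 3 wildtype libraries, with the mean and SD of each genotype and a vertical axis that starts at 0. The mutant libraries overlap the wildtype ones for *gata1a*, lie above them for *tal1* and *lmo2*, and lie far below them for the membrane protein genes and the globins.

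*gata1a*, the zinc finger factor that commits precursors to the erythroid lineage, had 14.9, 15.7 and 13.1 CPM in the mutant libraries and 14.2, 13.4 and 15.4 CPM in the wildtype libraries. The genotypes overlapped. Its log2 fold change was 0.01 (95% interval -0.14 to 0.16, edgeR adjusted p = 0.909), an interval that holds no change of the size seen in the globins. *tal1*, which encodes a bHLH factor of early blood and vessel precursors, had 50.9, 47.0 and 47.1 CPM in mutant and 41.1, 42.7 and 41.9 CPM in wildtype libraries. All mutant libraries lay above all wildtype libraries, by a log2 fold change of 0.20 (SE 0.04, edgeR adjusted p = 7.75e-05). *lmo2* encodes the LIM-domain adaptor that joins Tal1 to Gata factors. It had 47.0, 47.6 and 49.8 CPM in mutant and 30.0, 31.9 and 35.3 CPM in wildtype libraries. The genotypes did not overlap, and the log2 fold change was 0.58 (SE 0.05, edgeR adjusted p = 9.07e-12). *tal1* and *lmo2* are also used by endothelial precursors, so their levels in whole embryos are not those of red blood cell precursors alone. With a coefficient of variation of 0.2 between pools, assumed after seeing the data, neither rise passed the test (adjusted p = 0.732 for *tal1* and 0.104 for *lmo2*).

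*klf1*, the entry that RefSeq equates with *klfd*, had the largest fall among the regulators examined. In mouse its ortholog activates genes of the globins, the membrane skeleton and heme synthesis. It had 1.03, 0.689 and 0.810 CPM in mutant and 4.48, 4.23 and 3.90 CPM in wildtype libraries, which was 16 to 24 reads per mutant library against 76 to 105 per wildtype library. The genotypes were well separated, with a 5.05-fold lower level in mutants (log2 fold change -2.34, SE 0.18, edgeR adjusted p = 1.91e-12).

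*slc4a1a* encodes band 3, the anion exchanger that is the main integral protein of the red cell membrane, and zebrafish that lack it are anemic. It had 11.6, 13.4 and 13.8 CPM in mutant libraries, against 64.8, 62.1 and 59.6 CPM in wildtype libraries. This was the largest fall among the 9 genes, 4.78-fold, with a log2 fold change of -2.26 (SE 0.05, edgeR adjusted p = 9.79e-25). Only 0.553% of all genes tested had a lower log2 fold change. *epb41b* encodes protein 4.1, which ties spectrin and actin to the membrane. It had 8.70, 6.55 and 6.69 CPM in mutant and 19.8, 19.8 and 20.4 CPM in wildtype libraries, a 2.77-fold lower level in mutants (log2 fold change -1.47, SE 0.08, edgeR adjusted p = 8.30e-16). The highest mutant library, replicate 1, was still below every wildtype library, and without it the log2 fold change was -1.59.

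Hemoglobin of the embryo is built from alpha and beta chains, each encoded by several genes. The alpha globin *hbae3* had 138.8, 137.1 and 135.1 CPM in mutant libraries and 457.3, 452.4 and 442.2 CPM in wildtype libraries. It was 3.29-fold lower in mutants, with a log2 fold change of -1.72 (SE 0.02, edgeR adjusted p = 4.52e-30). Among the beta globins, *hbbe1.1* had 127.1, 123.2 and 121.3 CPM in mutant and 506.5, 508.8 and 495.9 CPM in wildtype libraries. This 4.07-fold lower level was the largest change among the 4 globins, with a log2 fold change of -2.03 (SE 0.02, edgeR adjusted p = 2.53e-31). *hbbe2* had 5.15, 4.44 and 5.03 CPM in mutant and 17.2, 18.1 and 17.3 CPM in wildtype libraries, a log2 fold change of -1.84 (SE 0.08, edgeR adjusted p = 4.91e-18). *hbbe3* had 134.6, 128.2 and 131.2 CPM in mutant and 364.5, 352.4 and 365.2 CPM in wildtype libraries. Its fall of 2.75-fold was the smallest of the 4, with a log2 fold change of -1.46 (SE 0.03, edgeR adjusted p = 7.20e-28). No globin's mutant libraries came near its wildtype libraries, and within a genotype the 3 libraries stayed close together.

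**Figure D2:**
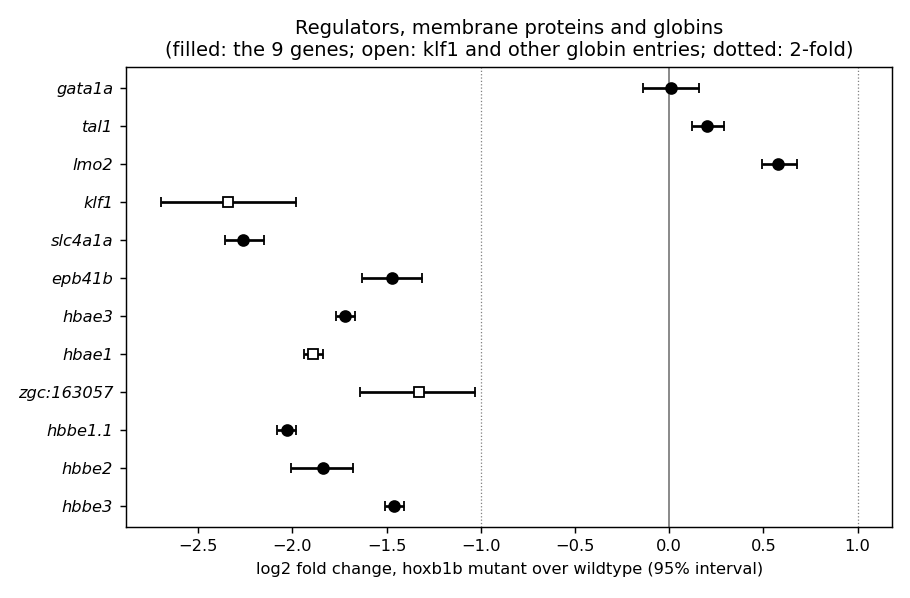
Log2 fold change of mutant over wildtype with its 95% interval for the 9 genes (filled circles) and for *klf1*, *hbae1* and *zgc:163057* (open squares), with dotted lines at a 2-fold change. The interval of *gata1a* spans 0, those of *tal1* and *lmo2* lie above 0 and short of a 2-fold rise, and those of all globins, both membrane protein genes and *klf1* lie below a 2-fold fall.

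With an assumed coefficient of variation of 0.2 between pools, the 4 globins, *slc4a1a* and *epb41b* were still called. With 0.4, *epb41b* (adjusted p = 0.095) and *hbbe3* (adjusted p = 0.0859) no longer were. Over all 12471 genes tested, 1213 were lower with 0.2 and 220 with 0.4.

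The 4 globins together took 0.0412%, 0.0399% and 0.0399% of all counts in the mutant libraries and 0.133%, 0.131% and 0.129% in the wildtype libraries. In summed CPM this was 397.1 ± 7.39 in mutant and 1332.6 ± 12.6 in wildtype libraries (SD, n = 3 each). The fall was not equal for all of them, so the make-up of the globin reads also differed between genotypes. *hbbe1.1* gave 30.9% to 31.3% of the reads of these 4 genes in mutant libraries, against 37.6% to 38.2% in wildtype libraries. *hbbe3* moved the other way, with 32.6% to 33.4% in mutant and 26.5% to 27.7% in wildtype libraries. The share of *hbae3* was 34.2% to 34.9% in mutant and 33.5% to 34.0% in wildtype libraries, and that of *hbbe2* overlapped between genotypes. These shares are of reads and are not corrected for transcript length. They leave out *hbae1*, described below, which had more CPM than any of the 4 genes in both genotypes. Its mean was 224.6 CPM in mutant and 831.4 CPM in wildtype libraries. Counts of *hbbe1.1* were fractional in all 6 libraries, so its share may hold reads of more than 1 gene copy.

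The ratio of 2 genes within a library does not depend on how libraries are scaled. Per read of *gata1a*, mutant libraries held 9.33, 8.74 and 10.3 reads of *hbae3*, against 32.2, 33.6 and 28.6 in wildtype libraries. For *hbbe1.1* the ratio was 8.54, 7.85 and 9.29 in mutant and 35.6, 37.8 and 32.1 in wildtype libraries. For *slc4a1a* it was 0.779, 0.852 and 1.05 in mutant and 4.56, 4.62 and 3.86 in wildtype libraries. These genes were thus low relative to *gata1a* in every mutant library. Reads of *lmo2* per *gata1a* read were 3.16, 3.04 and 3.81 in mutant and 2.11, 2.37 and 2.29 in wildtype libraries, and those of *tal1* overlapped, with 3.00 to 3.61 in mutant and 2.71 to 3.17 in wildtype libraries.

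**Figure D3:**
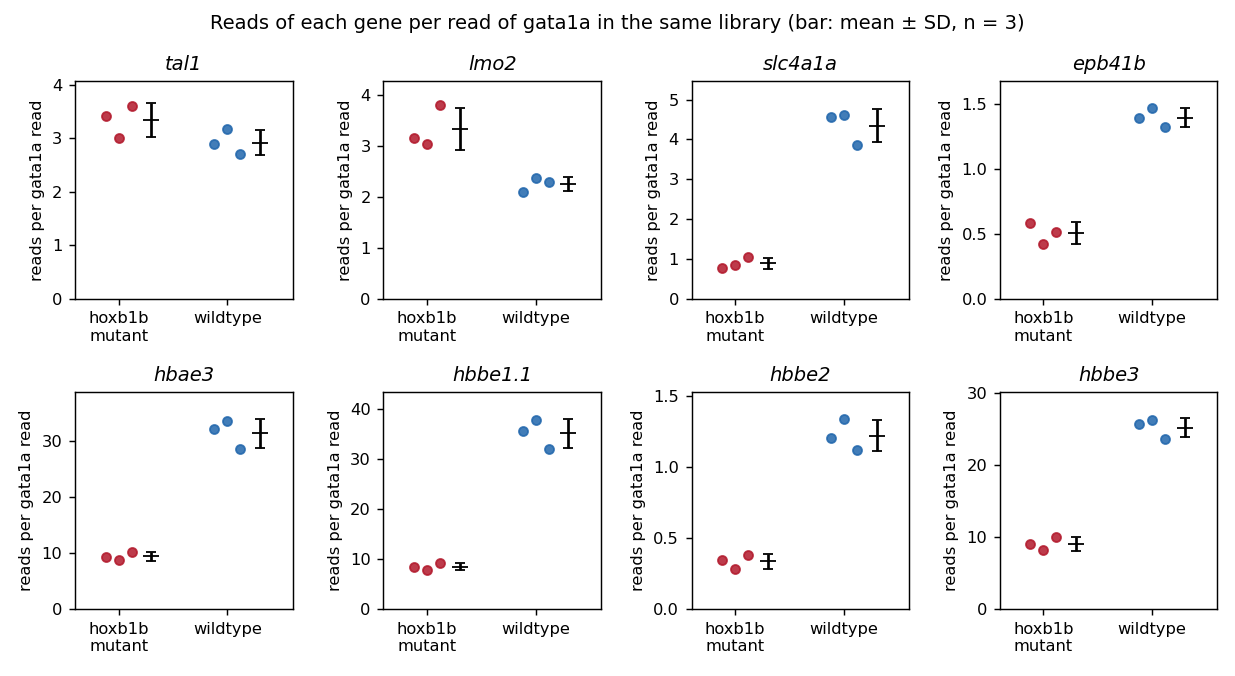
Reads of each gene divided by the reads of *gata1a* in the same library, for the 3 *hoxb1b* mutant and the 3 wildtype libraries, with mean and SD and vertical axes that start at 0. The globins and membrane protein genes lie between 2.76-fold (*epb41b*) and 4.86-fold (*slc4a1a*) lower in mutants by the ratio of means, *tal1* overlaps and *lmo2* is higher.

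The remaining globins were read from a list of 18 symbols, of which 3 have a row. *hbae1*, which RefSeq names *hbae1.1*, had 224.5, 225.3 and 223.9 CPM in mutant and 805.5, 841.7 and 846.9 CPM in wildtype libraries. This alpha globin fell like the others, with a log2 fold change of -1.89 (SE 0.02, edgeR adjusted p = 3.76e-31). *zgc:163057*, named *hbae4* in RefSeq, had 1.70, 1.51 and 2.03 CPM in mutant and 4.01, 4.89 and 4.51 CPM in wildtype libraries. It was lower by a log2 fold change of -1.33 (SE 0.15, edgeR adjusted p = 7.31e-09). The third, *zgc:92880* (*hbba2* in RefSeq, an adult beta globin), did not pass the filter and had at most 10 reads in any library. RefSeq holds further copies of *hbbe1.1* and *hbae1* that have no row here, and counts of *hbbe1.1* were fractional in all 6 libraries. The values of *hbbe1.1* and *hbae1* may therefore hold reads of more than 1 copy.

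Partners and other regulators of the erythroid program were read from a list of 26, of which 21 were tested. Of these, 5 were lower (33.6% of all genes tested were), 7 were higher (32.6% of all genes tested were) and 9 were not called. These shares were near or below those of all genes. Their median log2 fold change was 0.02, against -0.0034 over all genes tested. The largest rise was in *gfi1aa*, which encodes a zinc finger repressor of the primitive erythroid lineage in zebrafish. It had 12.5, 13.1 and 13.5 CPM in mutant and 4.22, 4.94 and 4.10 CPM in wildtype libraries, a log2 fold change of 1.56 (SE 0.09, edgeR adjusted p = 4.34e-15). *tcf3b*, a bHLH partner of Tal1 and the member with the highest CPM, rose by a log2 fold change of 0.32 (SE 0.03, edgeR adjusted p = 9.25e-12). Its relatives on the list, named after their values were seen, did not rise. *tcf3a* was not called (0.02) and *tcf12* was lower (-0.26). *tcf3b* had 220.8 CPM in wildtype libraries, against 14.4 for *gata1a*, so its level need not be that of red blood cells. The same may hold for other genes of this list, and the shares above are those of whole embryos.

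Some further regulators are named after their values were seen. *gata2a*, which acts in progenitors ahead of *gata1a*, had 52.7 ± 1.59 CPM in mutant and 42.4 ± 0.620 CPM in wildtype libraries (SD, n = 3 each), and rose by a log2 fold change of 0.32. *klf17*, a Krüppel-like factor that zebrafish use in primitive erythropoiesis and hatching gland, had 68.3 ± 3.00 CPM in mutant and 45.6 ± 0.757 CPM in wildtype libraries (SD, n = 3 each), and rose by a log2 fold change of 0.58. The genes that fell beside *klf1* included the erythropoietin receptor gene *epor*, with 1.56 ± 0.123 CPM in mutant and 2.64 ± 0.656 CPM in wildtype libraries (SD, n = 3 each). *nfe2*, which encodes a bZIP factor acting at globin loci, had 0.812 ± 0.0363 CPM in mutant and 1.59 ± 0.270 CPM in wildtype libraries (SD, n = 3 each). Reads per library were few, 28 to 65 for *epor* and 15 to 41 for *nfe2*. *bcl11aa*, the ortholog of a repressor of fetal globin in human, fell by a log2 fold change of -1.34. *gfi1b* was not called, at 6.54 ± 0.360 CPM in mutant and 6.42 ± 0.890 CPM in wildtype libraries (SD, n = 3 each). With an assumed coefficient of variation of 0.2 between pools, *gata2a*, *klf17* and *epor* were no longer called, while *nfe2* and *bcl11aa* still were.

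Genes of the red cell membrane and of transport were mostly lower. Of 29 listed, 20 were tested, and 14 were lower, against 33.6% of all genes tested, 3 were higher, against 32.6%, and 3 were not called. The median log2 fold change was -0.62, against -0.0034 over all genes tested. *rhag*, which encodes a gas and ammonium channel of the red cell membrane, fell the most, with 4.63, 4.87 and 4.12 CPM in mutant and 19.3, 18.3 and 17.4 CPM in wildtype libraries. Its log2 fold change was -2.03 (SE 0.08, edgeR adjusted p = 1.15e-18), close to those of the globins. *nt5c2l1* rose the most, by 0.80 (SE 0.06, edgeR adjusted p = 3.74e-13), and *prdx2*, an antioxidant enzyme gene with the highest CPM of the list, fell by 0.43 on the log2 scale (SE 0.03, edgeR adjusted p = 2.82e-14).

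Further genes of this list are named after their values were seen. *sptb*, which encodes beta-spectrin, had 37.7 ± 1.85 CPM in mutant and 66.6 ± 0.871 CPM in wildtype libraries (SD, n = 3 each), 1.78-fold lower in mutants. *ank1a*, the ankyrin gene that links spectrin to band 3, had 6.15 ± 0.441 CPM in mutant and 16.1 ± 1.17 CPM in wildtype libraries (SD, n = 3 each), 2.63-fold lower. *gypc*, the glycophorin C gene whose product binds protein 4.1, was 2.43-fold lower, and the erythrocyte carbonic anhydrase gene *cahz* was 1.54-fold lower. *aqp1a.1*, a water channel gene of red cells and vessels, was 3.76-fold lower. Not all genes of the list were lower. *add1*, which encodes the skeleton protein adducin, was 1.13-fold higher, and *xk* was 1.66-fold higher. *epb41l3b*, a relative of *epb41b*, was not called, with a log2 fold change of -0.01, and neither was *slc4a1b*, at -0.21. Several list members, among them *aqp1a.1*, *prdx2* and *tmod4*, are also used by other tissues. Each of these is counted among the lower genes of the list.

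Heme synthesis and iron genes as 1 list were called in both directions, but the heme synthesis enzyme genes only downward. Of 26 listed, 24 were tested, and 11 were lower, against 33.6% of all genes tested, 6 were higher, against 32.6%, and 7 were not called. Their median log2 fold change was -0.10, against -0.0034 over all genes tested. Split after the values were seen, the enzyme genes *alas1*, *alas2*, *alad*, *hmbsa*, *hmbsb*, *uros*, *urod*, *ppox* and *fech* were lower. Their log2 fold changes ran from -0.13 in *hmbsa* to -1.02 in *fech*, and only *fech* fell by more than 2-fold. With an assumed coefficient of variation of 0.2 between pools, 2 of the 24 tested genes of the list were called lower. Over all 12471 genes tested, 1213 were lower at this setting. The enzyme gene *cpox* was not called, with a log2 fold change of -0.04. The 6 higher genes were *slc25a39*, *tfr1b*, *glrx5*, *fth1b*, *aco1* and *flvcr1*, none of them a heme synthesis enzyme gene. *fech*, which encodes the enzyme that inserts iron into heme, fell the most, with 2.88, 3.27 and 2.70 CPM in mutant and 6.32, 5.82 and 5.69 CPM in wildtype libraries (log2 fold change -1.02, SE 0.12, edgeR adjusted p = 1.45e-08). *fth1b*, a ferritin heavy chain gene, rose the most, by 1.12 (SE 0.09, edgeR adjusted p = 5.37e-12). *fth1a*, the ferritin gene with the highest CPM, was not called, at 836.4 ± 9.83 CPM in mutant and 865.3 ± 40.5 CPM in wildtype libraries (SD, n = 3 each), but it passed the test as lower once wildtype replicate 3 was left out (log2 fold change -0.08) and when at least 10 counts were required in every library (-0.06). Counts of *fth1b* were fractional in all 6 libraries, so reads may be shared between these copies. Named after its value was seen, *alas2*, the erythroid enzyme of the first step of heme synthesis, had 28.5, 32.0 and 26.8 CPM in mutant and 54.0, 56.2 and 52.5 CPM in wildtype libraries. It was 1.87-fold lower in mutants (log2 fold change -0.90, SE 0.05, edgeR adjusted p = 9.19e-16), a smaller fall than that of any globin. *tfr1a*, the transferrin receptor gene used by zebrafish red cells, was 1.54-fold lower, and the mitochondrial iron carrier gene *slc25a37* was not called, with a log2 fold change of -0.08 (95% interval -0.27 to 0.11).

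**Figure D4:**
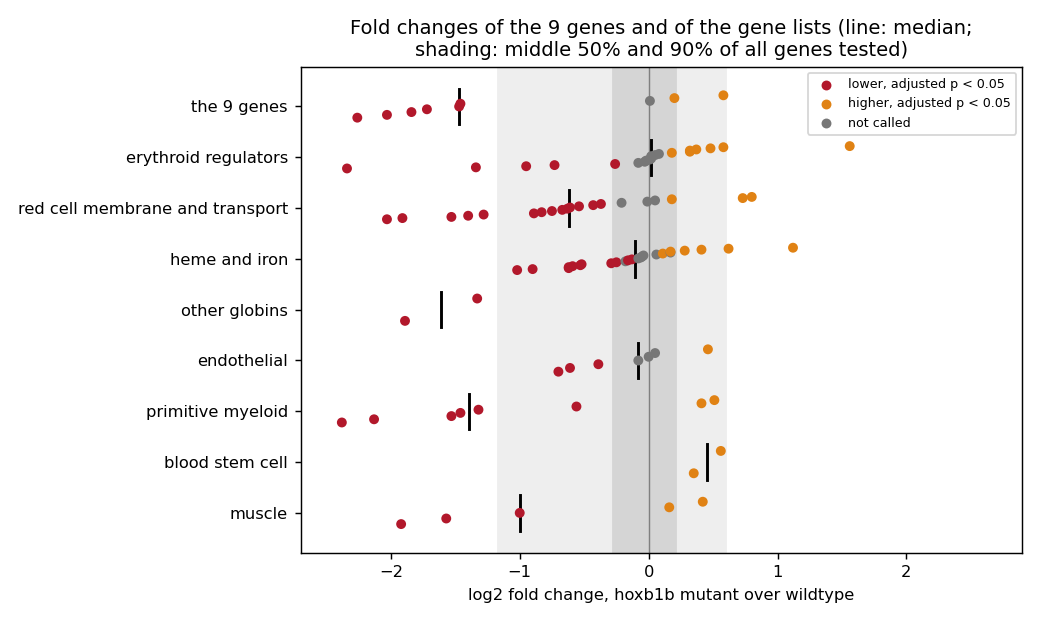
Log2 fold change of each tested gene for the 9 genes and 8 gene lists, coloured by call, with a line at each median and shading for the middle 50% and 90% of all 12471 genes. All globins lie to the left of the shading, the erythroid regulators lie on both sides of 0, the lowest primitive myeloid gene (*lyz*, -2.38) lies below the lowest globin (*hbbe1.1*, -2.03), and the lowest muscle gene (*tnnt3b*, -1.92) lies among the globins.

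Markers of other cell types, measured in the same libraries, moved as well, and their part in the results above was not tested. Beside the counts below, 33.6% of all genes tested were lower and 32.6% were higher. Among primitive myeloid genes, 6 of 8 were lower and 2 were higher. *lyz*, the lysozyme gene of mature myeloid cells, had 1.08, 1.46 and 1.11 CPM in mutant and 6.32, 6.44 and 6.36 CPM in wildtype libraries (log2 fold change -2.38, SE 0.14, edgeR adjusted p = 1.01e-14). The myeloid regulator *spi1b* rose by 0.51 (SE 0.15, edgeR adjusted p = 0.00487) and *cebpa*, also a regulator, by 0.41 (SE 0.04, edgeR adjusted p = 4.23e-09). Summed CPM of the list was 56.6 to 58.7 in mutant and 65.8 to 67.9 in wildtype libraries. Much of this sum was *cebpa*, with 38.9 ± 1.59 CPM in mutant and 29.2 ± 0.622 CPM in wildtype libraries (SD, n = 3 each). The sum therefore understates the fall of the 6 lower genes.

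Among endothelial genes, 3 of the 7 tested were lower, 1 was higher and 3 were not called, where 33.6% of all genes tested were lower and 32.6% higher. *etv2*, a regulator of vessel and blood precursors, rose by 0.46 (SE 0.04, edgeR adjusted p = 2.79e-12), and *tek*, an angiopoietin receptor gene, fell by 0.70 on the log2 scale (SE 0.07, edgeR adjusted p = 2.47e-09). Summed CPM of the list overlapped, with 196.1 to 208.5 in mutant and 201.2 to 210.3 in wildtype libraries. This sum holds opposite changes, with *etv2* at 73.7 CPM in mutant and 53.5 CPM in wildtype libraries. The 3 lower genes were *tek* and, named after their values were seen, *kdrl* and *cdh5*. Mean CPM was 22.9 in mutant and 30.0 in wildtype libraries for *kdrl*, and 17.1 and 26.0 for *cdh5*. Of 3 genes listed for blood stem cells, *runx1* and *myb* were higher, by 0.56 (edgeR adjusted p = 0.0245) and 0.35 (edgeR adjusted p = 2.64e-09). *gata2b* did not pass the filter, but it went the other way. It had 0, 1 and 3 reads in the mutant libraries and 10, 8 and 6 in the wildtype libraries. Reads of these genes in whole embryos need not come from blood stem cells, and *runx1* had only 21 to 45 reads per library. *runx1* was no longer called without mutant replicate 2 (edgeR adjusted p = 0.0876), without wildtype replicate 1 (edgeR adjusted p = 0.119) or with DESeq2 (adjusted p = 0.122).

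Of 5 muscle genes, 3 were lower and 2 were higher, where 33.6% of all genes tested were lower and 32.6% higher. The fast muscle light chain gene *mylpfa* had 603.6 ± 9.44 CPM in mutant and 1797.5 ± 13.3 CPM in wildtype libraries (SD, n = 3 each). *tnnt3b*, a fast troponin gene, fell the most, with a log2 fold change of -1.92, and *myod1*, the factor that commits cells to muscle, rose by 0.42 (SE 0.03, edgeR adjusted p = 1.14e-11). Summed CPM of the muscle list was 1302.2 to 1306.3 in mutant and 2995.7 to 3017.4 in wildtype libraries. No gene of these 4 lists was at 0 in every library.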

How the data were processed

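RNA-seq was carried out on poly(A) RNA of zebrafish whole embryos at 18hpf, with TruSeq stranded libraries. The values are estimated counts for each gene symbol, not normalized, which the authors made on a web interface and deposited. The submitters' processing notes name FastQC, RSEM 1.2.28 and DESeq2 and the builds GRCz10 and danRer7, without their roles. The aligner is not given in the sources used here. The table also holds the authors' own comparison (adjusted p-values and fold changes), which was not used. Genotypes and replicate numbers came from sample titles, and the mutants are numbered 2 to 4 in the table's columns.

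After rounding of the estimated counts, edgeR 4.0.16 was run in R 4.3.3 (filterByExpr, TMM, glmQLFit, glmQLFTest, genotype as the only factor). The fit ran over all genes and p-values were adjusted over all 12471 tested. Standard errors were taken from each log2 fold change and the root of its F statistic. The fit was tested on simulated data. All 9 genes are named in the text, with every entry of the list of other globins, and from each further list the largest rise, the largest fall and the highest CPM. Other genes are said to be named after their values were seen. The members and lists were chosen with earlier results of these data known. RefSeq (GRCz12tu) was used only for names, since its build differs from that of the counts, and it matched all 10 symbols. Planned searches of promoter and protein sequences were not run, and no position or sequence is given. Libraries of one genotype differed by more than counting noise, with a chi-square per degree of freedom of 1.5 to 1.97 for each pair.

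Scaling was also done by upper quartiles, by total counts, by the size factors of DESeq2 and by library sizes without globins. Further alternatives were DESeq2 1.42.0, a minimum of 10 counts in each library or no filter, rounding down, a replicate block, other call rules and each library left out in turn. Coefficients of variation of 0.2 and 0.4 between pools, used in edgeR's likelihood ratio test, were assumed after seeing the data. Figures were drawn with matplotlib 3.10.9.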

Additional observations from a re-analysis of the deposited data

How the results depend on the processing

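With the alternatives chosen at the outset, the log2 fold changes of the 9 genes kept their direction and call in 132 of 135 fits. The other 3 were for *gata1a*, which was not called in any, and whose value lay between -0.05 and 0.10 with 1 library left out. That of *gfi1b* lay between -0.06 and 0.14. No scaling moved the median of all genes by more than 0.1, and total count scaling, the farthest, put it at 0.0421. Same-numbered libraries did not deviate together, with correlations of 0.0647, 0.0431 and -0.0318 over genes, so the numbers were not taken as pairs. These are the numbers of the sample titles. The mutants carry the numbers 2, 3 and 4 in the count table, and by those the 2 shared numbers gave -0.105 and -0.0117. A replicate block called 8155 genes, against 8254 without it, and left *slc4a1a* at -2.25 and *gata1a* at 0.01, and it changed the call of none of the 9 genes. With total count scaling 2 endothelial genes were higher. Among blood stem cell genes, DESeq2 called 1 lower and 1 higher, and no filter gave 1 lower. The lower gene was *gata2b*, since *runx1* and *myb* had log2 fold changes above 0 in both fits. An adjusted p under 0.01 gave 1 higher. The number higher was 1 to 2 with 1 library left out (1 without mutant replicate 2 or wildtype replicate 1, when *runx1* was not called).

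Requiring more than 2-fold as well left 831 genes lower and 212 higher over all genes (4191 and 4063 without it), with 0 of the 9 genes higher. It left 2 regulators lower and 1 higher, 5 membrane genes lower and 0 higher, 1 heme gene lower and 1 higher, 0 endothelial genes in either direction, and 0 myeloid, 0 blood stem cell and 0 muscle genes higher.

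With an assumed variation of 0.2 between pools, 1213 genes were lower and 377 higher, and 0 of the 9 genes were higher. *tal1* had a log2 fold change of 0.21, *lmo2* of 0.57 and *hoxb1b* of 0.29, none of them called. Called lower and higher were 3 and 1 regulators, 9 and 1 membrane genes, 2 and 1 heme genes and 1 and 0 endothelial genes, and 0 myeloid, 0 blood stem cell and 0 muscle genes were higher. With 0.4, 220 genes were lower and 43 higher. *epb41b* at -1.45, *hbbe3* at -1.46, *tal1* at 0.21, *lmo2* at 0.57 and *hoxb1b* at 0.29 were not called, and 0 of the 9 genes were higher. Called lower were 1 regulator, 1 other globin, 2 membrane, 0 heme, 0 endothelial, 2 myeloid and 1 muscle genes, and 0 of any list were higher.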
